A study of Mus musculus with 14 samples.

Results

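The genes described here are 9 enzymes of cholesterol synthesis: Hmgcs1, Mvk, Idi1, Fdps, Fdft1, Sqle, Cyp51, Msmo1 and Sc5d. The rule takes each by its symbol, where that symbol stands alone on a probe set in the array annotation, and applies no threshold on measured values; the list itself was drawn up with earlier results of these data known. Of 22626 probe sets that are not controls, 21 carry one of these symbols, and the array names 12393 genes in this way. Each gene is represented by its brightest probe set over the 14 arrays; all 9 of these passed the filter on low intensity. Of the 12 other probe sets 7 passed it, and they serve as a check.

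The arrays measured total RNA of mouse liver, in normal animals and in animals with a partial hepatectomy (PHx), in which liver lobes are cut away and the remnant regrows. There are 7 groups of 2 arrays: normal mouse liver, and liver taken 4, 8, 12, 36, 48 and 72 h after PHx. Each RNA extraction combined the livers of 4 to 6 mice, whose strain, sex and age, like the extent of the resection, are not stated in the labels. It is not stated either whether replicate arrays are separate pools, so p-values cover only the spread between these arrays, which may be technical. No sham-operated group was analysed here, so the operation itself and the regrowth cannot be told apart in any comparison with normal liver.

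Liver cells make cholesterol from acetyl-CoA by a long chain of enzymes. The first steps lead to mevalonate and to 5-carbon isoprenoid units, these are joined to farnesyl diphosphate and squalene, and squalene is oxidised and folded into a sterol that later enzymes trim to cholesterol. Genes of the pathway are classical targets of SREBP-2, the product of Srebf2. This membrane-bound transcription factor is released when sterols in the endoplasmic reticulum are low and held back by SCAP and INSIG proteins when they are high.

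The 6 hepatocyte markers with a named probe set (of 7 listed) were above background in every array, with summed intensities of 171994 to 367024. By limma 0 of these 6 was called at any time against normal liver, while 4 had an unadjusted p under 0.05 at 36 h and 2 at 48 h. Their differences from normal liver on the log2 scale were all negative at these 2 times. The median was -0.62 at 36 h (-0.83 to -0.42) and -0.50 at 48 h (-0.71 to -0.32). Markers of other tissues varied more: 8 pancreatic acinar genes summed to 444 and 1085 in normal liver, 30593 and 31223 at 4 h, 216524 and 201897 at 8 h, 3275 and 1159 at 12 h, and 669 and 34420 in the 36 h arrays. Skeletal muscle markers (8 of 8) summed to 222 and 322 in normal liver, 14607 and 12852 at 4 h, and 8833 and 8266 at 8 h. In 4 arrays, replicate 2 at 8, 12, 36 and 72 h, the control probe sets for pyruvate carboxylase gave a 5′ signal of 0.09095 to 0.1366 times the 3′ signal, against 0.3048 to 0.5844 times in the other 10. In whole tissue, fewer cells of a type and less RNA per cell cannot be told apart.

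The 9 enzymes were low at 8 and 12 h, most of them stood at or above normal liver at 36 h, and at 48 and 72 h they were below it again, with medians on the log2 scale of -1.43 at 12 h, 0.61 at 36 h and -1.06 at 48 h. At 12 h 7 of 9 had fallen against normal liver, with differences from -3.01 (Mvk, a fitted value below background) to -1.10, while 6.21% of all tested probe sets were called lower. Between 12 and 36 h 9 of 9 rose, by 1.41 to 3.30, and 3.08% of all tested probe sets were called higher in that step. Over the whole course 9 of 9 changed by the moderated F test of limma (adjusted p 9.73e-05 to 0.00921), against 13.1% of all tested probe sets. The plot of intensities by array shows this course for each enzyme.

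**Figure D1:**
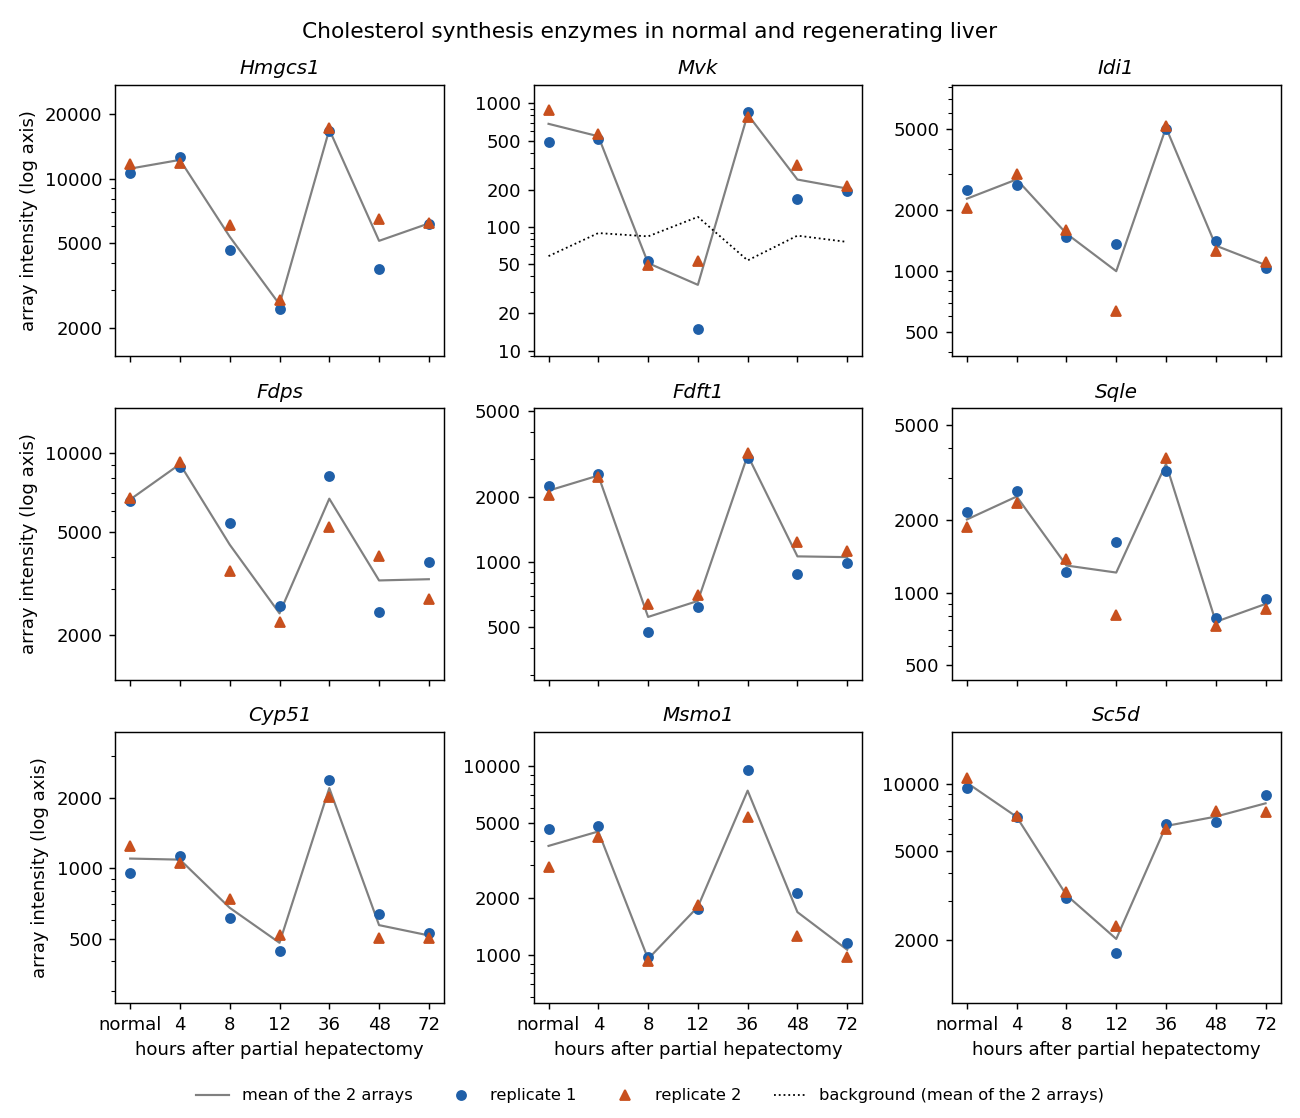
Array intensity (log axis) of the brightest probe set of each of the 9 enzymes in normal liver and at 6 times after partial hepatectomy. Points are single arrays, 2 per group, lines join the group means, and the dotted line for Mvk is the array background. The 36 h mean stands highest in 7 of 9 panels, with 1 normal array above both 36 h arrays for Mvk; the mean of Fdps is highest at 4 h and that of Sc5d in normal liver.

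Intensities are the deposited linear values and are compared only within a probe set. Changes are differences in log2 of the intensity plus 56.6, with the standard error (SE) of a limma fit to all 14 arrays. P-values are adjusted by Benjamini-Hochberg over the 13576 tested probe sets, and a change is called at an adjusted p under 0.05. The 6 comparisons with normal liver share its 2 arrays.

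Hmgcs1 codes for the cytosolic HMG-CoA synthase, which condenses acetyl-CoA and acetoacetyl-CoA ahead of mevalonate. Its promoter is shown because its letters match the core of the sterol element, the sequence that SREBP is known to bind. The 250 bases before its start, chr13:119690101-119690350 on the plus strand of GRCm38.p6 (RefSeq), are given with matches to TCACNCCAC, the sterol element core, and to CCAAT or its reverse complement ATTGG, the box bound by NF-Y, in capitals.
Hmgcs1: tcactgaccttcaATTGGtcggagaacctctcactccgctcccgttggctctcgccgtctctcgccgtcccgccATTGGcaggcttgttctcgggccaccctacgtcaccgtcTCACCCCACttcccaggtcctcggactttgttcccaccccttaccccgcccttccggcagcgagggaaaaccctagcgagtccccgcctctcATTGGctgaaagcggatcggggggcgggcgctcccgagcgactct
The sterol element match begins 137 bases before the start, and 3 CCAAT boxes begin 237, 176 and 45 bases before it. A match is a description of the letters and no evidence of binding.

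Hmgcs1 read 10628 and 11659 in normal liver, 12621 and 11867 at 4 h, 4624 and 6052 at 8 h, and 2446 and 2692 at 12 h. It then read 16763 and 17206 at 36 h, 3751 and 6458 at 48 h, and 6150 and 6174 at 72 h. Both 36 h arrays lay above every other array and both 12 h arrays below every other array, with group means 6.61-fold apart. In the order of levels only the 8 and 48 h groups overlapped as neighbours. Against normal liver Hmgcs1 fell by 1.07 at 8 h (SE 0.26, adjusted p = 0.0237), by 2.09 at 12 h (adjusted p = 0.000576) and by 1.17 at 48 h (adjusted p = 0.0369). It was not called at 36 h, at 0.61 (adjusted p = 0.234), or at 72 h, at -0.85 (adjusted p = 0.128). It rose by 2.70 from 12 to 36 h (adjusted p = 0.000372). Its 3 other probe sets were each called lower at 12 h, by -1.38 to -1.96, and higher from 12 to 36 h, by 2.14 to 2.49. At 8 h 1 of these 3 was called (adjusted p = 0.25, 0.158 and 0.0166), and at 48 h 0 of 3 was called by limma (adjusted p = 0.477, 0.383 and 0.202).

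Mvk, mevalonate kinase, adds the first phosphate to mevalonate. Its window is shown for its 5 CCAAT boxes, the most among the enzymes with a promoter in the table; it spans chr5:114444019-114444268 on the plus strand, with CCAAT and ATTGG in capitals.
Mvk: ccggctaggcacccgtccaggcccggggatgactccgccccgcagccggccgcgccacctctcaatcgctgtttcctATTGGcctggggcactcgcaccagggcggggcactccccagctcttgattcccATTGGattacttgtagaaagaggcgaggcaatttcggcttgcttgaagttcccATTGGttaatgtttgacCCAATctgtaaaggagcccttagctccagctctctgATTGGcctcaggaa
The boxes begin 173, 120, 67, 50 and 14 bases before the start, and no match to TCACNCCAC is in these letters.

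Mvk read 485 and 882 in normal liver, 519 and 565 at 4 h, 53 and 49 at 8 h, and 15 and 53 at 12 h. At the later times it read 855 and 772 at 36 h, 169 and 315 at 48 h, and 194 and 215 at 72 h. It was above the background of the array in 10 of 14 arrays; the 4 arrays at 8 and 12 h were all not above background, so its levels there are only upper limits and have no order. Against normal liver it was at least 7.83-fold lower at 8 h (adjusted p = 0.00035) and at least 5.48-fold lower at 12 h (adjusted p = 0.000231). From 12 to 36 h it rose at least 6.80-fold (adjusted p = 0.000372). At 36 h its arrays lay within the range of normal liver (0.29, SE 0.32, adjusted p = 0.715). It was lower again at 72 h, by -1.45 (adjusted p = 0.0318), and at 48 h the difference of -1.30 was not called (adjusted p = 0.0572).

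Idi1 codes for the isomerase that interconverts the 2 forms of the 5-carbon unit, isopentenyl and dimethylallyl diphosphate. It read 2510 and 2034 in normal liver, 2654 and 2997 at 4 h, 1469 and 1592 at 8 h, and 1363 and 637 at 12 h. It read 5006 and 5146 at 36 h, 1412 and 1258 at 48 h, and 1031 and 1114 at 72 h. The 36 h mean was 223.4% of that of normal liver, the highest such value among the 9 enzymes, and the 12 h arrays differed from each other more than the pairs at the other times. Idi1 fell by 1.22 at 12 h (SE 0.29, adjusted p = 0.0185) and rose by 1.15 at 36 h against normal liver (adjusted p = 0.0484). The rise from 12 to 36 h was 2.37 (adjusted p = 0.00105). At 8, 48 and 72 h it was not called, at -0.55, -0.74 and -1.04 (adjusted p = 0.267, 0.276 and 0.1). Its other tested probe set was not called at 12 h, at -1.01 (adjusted p = 0.104), or at 36 h, at 1.10 (adjusted p = 0.141). That probe set was called higher from 12 to 36 h, at 2.11 (adjusted p = 0.00908). The RefSeq window of Idi1, chr13:8885356-8885605 on the plus strand, holds 2 CCAAT boxes.

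Fdps, farnesyl diphosphate synthase, joins the 5-carbon units into farnesyl diphosphate, from which sterols, dolichol, ubiquinone and protein prenyl groups are made. It read 6520 and 6743 in normal liver, 8865 and 9256 at 4 h, 5381 and 3522 at 8 h, and 2602 and 2256 at 12 h. It read 8141 and 5217 at 36 h, 2455 and 4039 at 48 h, and 3817 and 2748 at 72 h. Its highest arrays were those of 4 h, not of 36 h, and the 36 h arrays lay on both sides of normal liver (-0.02, SE 0.31, adjusted p = 0.983). The group means spanned 3.73-fold, the smallest span among the 9. Fdps was called at 12 h alone against normal liver, where it fell by 1.43 (adjusted p = 0.0124). From 12 to 36 h it rose by 1.41 (adjusted p = 0.0251), a call that was lost without replicate 2 of 12 h or replicate 1 of 36 h (highest adjusted p 0.211).

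Fdft1 codes for squalene synthase, the first enzyme committed to sterols. It read 2240 and 2035 in normal liver, 2538 and 2482 at 4 h, 478 and 639 at 8 h, and 618 and 706 at 12 h. It read 3026 and 3202 at 36 h, 883 and 1243 at 48 h, and 989 and 1120 at 72 h. The 8 and 12 h arrays overlapped, as did those of 48 and 72 h, and the 36 h arrays were above all others. Fdft1 fell by 1.85 at 8 h (SE 0.23, adjusted p = 0.000521), by 1.61 at 12 h (adjusted p = 0.00122), by 0.99 at 48 h (adjusted p = 0.0462) and by 0.98 at 72 h (adjusted p = 0.0454). It was the only one of the 9 called lower at all 4 of these times. At 36 h the difference of 0.53 was not called (adjusted p = 0.241). Its other tested probe set was called lower at 8 and 12 h (adjusted p = 0.00286 and 0.0018), and not at 48 or 72 h (adjusted p = 0.0562 and 0.161).

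Sqle, squalene epoxidase, inserts the oxygen on which the ring closure depends, and is regarded as a rate-limiting step of the sterol branch. It read 2160 and 1878 in normal liver, 2662 and 2366 at 4 h, 1218 and 1382 at 8 h, and 1624 and 807 at 12 h. It read 3221 and 3648 at 36 h, 790 and 728 at 48 h, and 944 and 857 at 72 h. Unlike the other 8 enzymes, whose lowest means were at 8 or 12 h, Sqle had its lowest mean at 48 h, 37.6% of normal liver, and its 12 h arrays overlapped those of 8 and 72 h. It was called lower at 48 h, where it fell by 1.34 (SE 0.28, adjusted p = 0.027), and not at 12 h, at -0.78 (adjusted p = 0.0898). From 12 to 36 h it rose by 1.53 (adjusted p = 0.00977).

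Cyp51, the cytochrome P450 that removes the 14-alpha methyl group of lanosterol, read 958 and 1240 in normal liver, 1125 and 1050 at 4 h, 614 and 740 at 8 h, and 442 and 518 at 12 h. It read 2388 and 2008 at 36 h, 638 and 504 at 48 h, and 530 and 502 at 72 h. The 36 h mean was 200% of normal liver and both arrays lay above all others, while the groups of 8, 48, 72 and 12 h overlapped their neighbours in that order. Cyp51 fell by 1.10 at 12 h (SE 0.23, adjusted p = 0.00916) and, to 46.9% of the normal mean, at 72 h (adjusted p = 0.0379), and rose by 0.97 at 36 h (adjusted p = 0.0329). Its other tested probe set was called at 12 h, at -0.84 (adjusted p = 0.0483), and at 36 h, at 1.07 (adjusted p = 0.0353), but not at 72 h, at -0.39 (adjusted p = 0.491). The Cyp51 window, chr5:4104698-4104947 on the minus strand, holds 1 CCAAT box.

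Msmo1, the methylsterol monooxygenase that oxidises the methyl groups at carbon 4, read 4629 and 2936 in normal liver, 4822 and 4198 at 4 h, 981 and 929 at 8 h, and 1764 and 1837 at 12 h. It read 9480 and 5351 at 36 h, 2121 and 1256 at 48 h, and 1155 and 980 at 72 h. Its lowest arrays were those of 8 h and 72 h, which overlapped, and the 12 h arrays lay above both. Msmo1 fell by 1.89 at 8 h (SE 0.33, adjusted p = 0.00391) and by 1.74 at 72 h (adjusted p = 0.0131). At 12 h the difference of -1.01 and at 36 h that of 0.94 were not called (adjusted p = 0.0618 and 0.141), and the step from 12 to 36 h was a rise of 1.95 (adjusted p = 0.00564). The Msmo1 window, chr8:64733579-64733828 on the minus strand, holds 3 CCAAT boxes.

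Sc5d, the C5 sterol desaturase, acts near the end of the pathway. Its window is shown because its course differed most from that of the other enzymes; it spans chr9:42264301-42264550 on the minus strand, with ATTGG in capitals.
Sc5d: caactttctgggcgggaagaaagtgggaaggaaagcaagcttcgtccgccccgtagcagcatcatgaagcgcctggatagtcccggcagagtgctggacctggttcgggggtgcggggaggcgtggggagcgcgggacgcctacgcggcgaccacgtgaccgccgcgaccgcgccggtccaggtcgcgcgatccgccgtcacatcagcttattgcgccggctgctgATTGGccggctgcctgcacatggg
The single CCAAT box begins 24 bases before the start, and no match to TCACNCCAC is in these letters.

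Sc5d read 9551 and 10660 in normal liver, 7091 and 7148 at 4 h, 3079 and 3288 at 8 h, and 1749 and 2311 at 12 h. It read 6649 and 6316 at 36 h, 6720 and 7560 at 48 h, and 8917 and 7450 at 72 h. Normal liver was above every other group, and there was no drop after 36 h: the 48 h arrays lay above those of 36 h. Sc5d fell by 1.65 at 8 h (SE 0.22, adjusted p = 0.000705) and by 2.30 at 12 h (adjusted p = 0.000117). At 36, 48 and 72 h it was not called, at -0.63, -0.50 and -0.31 (adjusted p = 0.133, 0.323 and 0.53). Its rise from 12 to 36 h was 1.66 (adjusted p = 0.00138).

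The 2 tested probe sets of Sc5d differed in their calls at 36 and 72 h, and in the steps from 4 to 8 h and from 12 to 36 h. They also differed when 36, 48 and 72 h were set against 4, 8 and 12 h. The difference between them was not tested. The dimmer one read 500 and 695 in normal liver, 210 and 252 at 4 h, 274 and 174 at 8 h, 193 and 140 at 12 h, 293 and 206 at 36 h, 467 and 580 at 48 h, and 268 and 185 at 72 h. It was called lower at 8 and 12 h, and also at 36 h, at -1.09 (adjusted p = 0.0491), and at 72 h, at -1.21 (adjusted p = 0.0435), where the bright one was not. At 4 h it was at -1.17 (adjusted p = 0.0503), with a step from 4 to 8 h of -0.06 (adjusted p = 0.953), and its step from 12 to 36 h was 0.45 (adjusted p = 0.392). Both probe sets were called lower at 8 and 12 h and neither at 4 or 48 h by limma, and the rest of the course of Sc5d depends on the probe set.

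The windows of 6 of the 9 enzymes are in the promoter table, those of Hmgcs1, Mvk, Idi1, Cyp51, Msmo1 and Sc5d. CCAAT on either strand was in 6 of 6, against 33.8% of 32851 promoters of the same 250 bases, and at least 2 boxes were in 4 of 6, against 10.1%. GGGCGG on either strand, the box bound by Sp1, was in 6 of 6, against 32.7%. TCACNCCAC was in 1 of 6, against 1.05%; that no match was found in the other 5 says only that these letters are not in these windows. These are descriptions of few promoters and carry no test. The 6 windows had a GC content of 51.2% to 72%, and the 32851 promoters were not matched to them for it, so the part of base composition was not tested. The motifs as spelled share no match with each other in the 6 windows.

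At 4 h, the first time after the operation, 0 of 9 enzymes was called by limma, and 1 (Sc5d, at -0.50) had an unadjusted p under 0.05; 2.42% of all tested probe sets were called in either direction. The median of the 9 was 0.23, beside -0.00 over all tested probe sets. The arrays lay above both normal arrays for 5 of 9 enzymes (background 19.4%) and below for 1 (background 23.8%).

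At 8 h 5 of 9 had fallen, Hmgcs1, Mvk, Fdft1, Msmo1 and Sc5d, while 4.72% of all tested probe sets were called lower. The median of the 9 was -1.07, beside 0.09 over all. Both 8 h arrays lay below both normal arrays for 9 of 9 (background 25.6%). Without replicate 2 of normal liver or either 8 h array Hmgcs1 lost its call, which left 4. Pancreatic acinar markers were at their highest in these 2 arrays, at 216524 and 201897, and 6 of 6 tested skeletal muscle markers were called higher. Counts of enzymes called were the same without the pancreas and muscle probe sets, with the arrays rescaled. That check changes the enzymes' own intensities only by the scale of the array, so it could hardly have moved the counts. The part of pancreas and muscle RNA was not tested. At 12 h, where the acinar sums were 3275 and 1159, the arrays were again below normal liver for 9 of 9 (background 22.9%), with a median of -1.43 beside 0.12 over all. The enzymes not called at 12 h were Sqle and Msmo1. Without replicate 2 of normal liver Idi1, Fdps and Cyp51 lost their calls and 4 were left. Idi1 and Fdps lost theirs without replicate 2 of 12 h, and Idi1 without replicate 1 of normal liver.

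**Figure D2:**
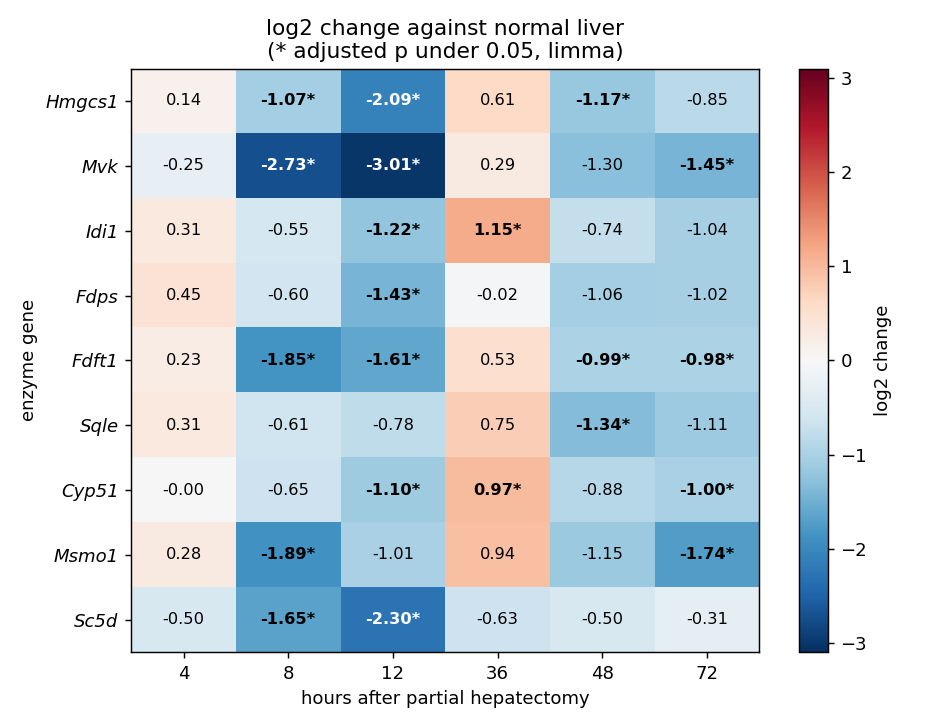
Differences in log2 intensity between each time after partial hepatectomy (columns) and normal liver for the 9 enzymes (rows, in pathway order), with an asterisk where limma called them. The 12 h column is the lowest for Hmgcs1, Idi1, Fdps, Cyp51 and Sc5d; for Mvk the 8 and 12 h values are fitted below background and have no order. The 36 h column holds the 2 called rises, of Idi1 and Cyp51.

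At 36 h 2 of 9, Idi1 and Cyp51, had risen above normal liver, and 0 had fallen, while 2.28% of all tested probe sets were called higher and 1.88% lower. The median was 0.61, beside 0.07 over all, and both arrays lay above both normal arrays for 6 of 9 (background 26.7%) and below for 1, Sc5d (background 20.2%). The 2 calls were lost, leaving 0, without any 1 array of normal liver or of the 4, 36 or 72 h groups, and 1 was left without an 8 or 48 h array. Among the 7 other probe sets limma called 1 higher at 36 h, that of Cyp51, and 1 lower, that of Sc5d. The other probe set of Idi1 was not called (adjusted p = 0.141). The 2 arrays of 36 h differed in acinar markers, 669 against 34420. The count of calls at 36 h was also 2 without the pancreas and muscle probe sets, a check that only rescales the enzymes. The first array lay above both normal arrays for 7 of 9 enzymes and the second for 6. Fdps made the difference, with 8141 in the first array and 5217 in the second, which was below both normal arrays, and Msmo1 read 9480 and 5351.

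The step from 12 to 36 h uses no array of normal liver. It was a rise in 9 of 9 enzymes, and the arrays did not overlap for any of them (background 23.5%). The median was 2.07, beside -0.05 over all tested probe sets, and the order ran from Mvk, Hmgcs1 and Idi1 at the top to Fdps at the bottom. Of the 7 other probe sets 6 were called higher as well, with Sc5d the exception. In a limma fit of only the arrays compared 0 of 9 enzymes was called. The calls numbered 6 without replicate 1 of 36 h, where Fdps, Sqle and Msmo1 lost theirs, 8 without replicate 2 of 36 h (Sqle) or of 12 h (Fdps), and 0 without the 4 arrays with a low 5′ control signal, where 1 array was left at each time and the changes were 0.96 to 3.68.

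**Figure D3:**
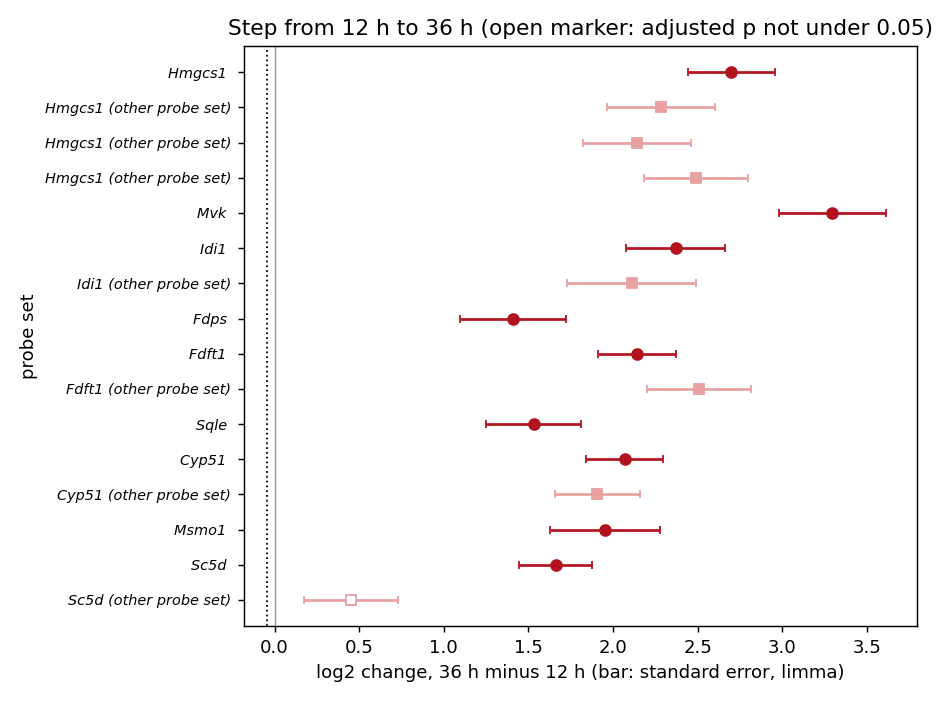
Difference in log2 intensity between 36 h and 12 h after partial hepatectomy for the 16 tested probe sets of the 9 enzymes, with bars for 1 standard error of the limma fit; dark circles are the brightest probe sets, pale squares the others, and the dotted line is the median of all tested probe sets. The values run from 0.45 for the dimmer Sc5d probe set, the open marker, to 3.30 for Mvk.

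At 48 h 3 of 9, Hmgcs1, Fdft1 and Sqle, were called lower than normal liver, against 0.685% of all tested probe sets. The arrays lay below normal liver for 9 of 9 (background 16.3%), with a median of -1.06 beside 0.12 over all. The count was 0 without replicate 2 of normal liver or replicate 1 of 48 h, and 1 without replicate 1 of normal liver or any 1 array of the 4, 8, 36 or 72 h groups. At 72 h 4 of 9, Mvk, Fdft1, Cyp51 and Msmo1, were called lower, against 0.869%. The arrays were below normal liver for 9 of 9 (background 17.5%), with a median of -1.02 beside 0.11. Of the 7 other probe sets limma called none at 48 h, where the lowest adjusted p was 0.0562, for Fdft1, and 1, that of Sc5d, at 72 h. The count at 72 h was 0 without either 72 h array, 1 without replicate 2 of normal liver or any 1 array of 4 or 8 h, and 2 without replicate 1 of normal liver or an array of 36 h.

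The steps down on either side were compared after the values were seen. From 4 to 8 h 5 of 9 fell, against 0.619% of all tested probe sets, led by Mvk, at least 6.49-fold lower (adjusted p = 0.00486), Msmo1, by 2.17 (adjusted p = 0.00996), and Fdft1, by 2.07 (adjusted p = 0.00216). Hmgcs1 and Sc5d were the others, and the dimmer probe set of Sc5d was at -0.06 (adjusted p = 0.953). The 3 other probe sets of Hmgcs1 were not called in this step (adjusted p = 0.202, 0.189 and 0.0544). Of the 7 other probe sets 1, that of Fdft1, was called lower. The arrays were lower at 8 h for 9 of 9 (background 22.7%), and 1 call was left without any 1 of the 4 arrays compared. From 36 to 48 h 6 of 9 fell, against 0.258%, with Sqle the lowest at -2.10 (adjusted p = 0.00887). Of the 7 other probe sets 2 were called lower, those of Fdft1 and Cyp51. The other probe sets of Hmgcs1 (adjusted p = 0.0868, 0.097 and 0.0746) and of Idi1 (adjusted p = 0.226) were not called. The arrays were lower at 48 h for 8 of 9 (background 18.4%) and higher for 1, Sc5d, at 0.14 (adjusted p = 0.89; background 21.6%). The count of 6 became 0 without replicate 2 of 36 h, 1 without replicate 2 of 48 h, 2 without replicate 1 of 48 h and 4 without replicate 1 of 36 h.

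With the 6 early arrays (4, 8 and 12 h) set against the 6 late ones (36, 48 and 72 h), 4 of 9 enzymes were called higher late, against 9.87% of all tested probe sets. They were Mvk (adjusted p = 0.001), with 2 of its 6 early arrays above background, so that the size is not given, Sc5d (adjusted p = 0.000194), Fdft1 at 0.60 (adjusted p = 0.00947) and Hmgcs1 at 0.54 (adjusted p = 0.0295). Hmgcs1 lost its call, which left 3, without any 1 array of 4, 36 or 72 h, replicate 1 of 8 h or replicate 2 of 48 h. Of the 7 other probe sets 5 were called higher late. The dimmer probe set of Sc5d was not called, at 0.49 (adjusted p = 0.0573). The early and late arrays overlapped for 9 of 9, and the share over all tested probe sets was not worked out.

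The 9 enzymes varied together to different degrees. Across the 14 arrays the correlation of an enzyme with the mean of the other 8, on centred log2 values, was 0.953 for Fdft1, 0.945 for Hmgcs1, 0.909 for Mvk and 0.899 for Cyp51. It was 0.882 for Idi1, 0.831 for Msmo1, 0.816 for Fdps, 0.798 for Sqle and 0.578 for Sc5d. The arrays share their scaling and come in pairs of one time, so these are descriptions. In the mean of the 9, the 2 arrays of a time lay close together: 1.22 and 1.04 at 36 h, -0.96 and -1.03 at 12 h, and 0.61 and 0.63 in normal liver.

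**Figure D4:**
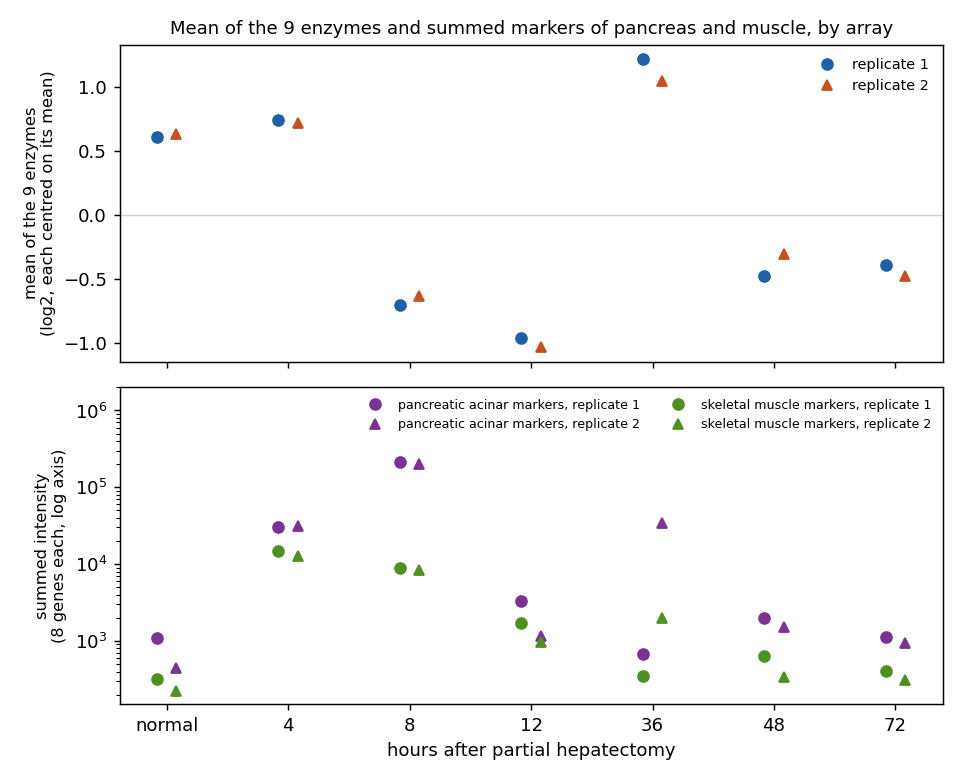
Upper panel, mean of the 9 enzymes by array (log2, each enzyme centred on its mean over 14 arrays); lower panel, summed intensity (log axis) of 8 pancreatic acinar and 8 skeletal muscle markers in the same arrays. The enzymes were lowest at 12 h and highest at 36 h, while the acinar sum peaked at 8 h and differed between the 36 h arrays, 669 and 34420.

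Other enzymes of the pathway had medians nearer 0. Of 11 listed, 9 had a named probe set and were tested, and 0 was called by limma at 4 h (1 at an unadjusted p under 0.05). At 8 h 3 were called lower and at 12 h 3, with medians of -0.61 and -0.59. Over all tested probe sets 4.72% and 6.21% were called lower at these times. Lss, the lanosterol synthase that closes the rings, read 1343 and 1376 in normal liver, 533 and 585 at 4 h, 360 and 526 at 8 h, 574 and 336 at 12 h, 2245 and 2128 at 36 h, and 602 and 331 at 48 h. Its arrays at 36 h were above and those at 8, 12 and 48 h below normal liver without overlap. Unlike the median of the 9, it was already low at 4 h, at -1.20, though not called (adjusted p = 0.0664). Lss was called lower at 8 h (-1.52, adjusted p = 0.00893), 12 h (-1.51, adjusted p = 0.00847) and 48 h (-1.49, adjusted p = 0.0243). Dhcr7, which makes cholesterol from 7-dehydrocholesterol, fell by 1.31 at 8 h (adjusted p = 0.0249) and by 1.82 at 12 h (adjusted p = 0.00392).

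From 12 to 36 h 4 of these 9 rose, Lss by 2.17 (adjusted p = 0.00235), Dhcr7 by 1.52 (adjusted p = 0.0207), Nsdhl by 1.18 (adjusted p = 0.00647) and Pmvk by 1.16 (adjusted p = 0.0248). Nsdhl is a dehydrogenase of the carbon 4 demethylation, and Pmvk adds the second phosphate to mevalonate. The list's median in that step was 0.58, and 3.08% of all tested probe sets were called higher. At 36 h against normal liver 0 of 9 was called by limma, with 5 at an unadjusted p under 0.05 and a median of 0.10. Tm7sf2, a sterol C14 reductase, took another course and was called lower at 72 h (-1.22, adjusted p = 0.0149). Lbr, the lamin B receptor with the same reductase activity, was not called at 36 h, at 1.33 (adjusted p = 0.0539). Late against early, Lbr was called higher, at 0.87 (adjusted p = 0.0117), as was Lss, at 0.98 (adjusted p = 0.00262). Tm7sf2 was called lower in that comparison, at -0.78 (adjusted p = 0.00203).

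Of genes of sterol sensing (8 listed, 6 tested), 1 was called higher at 4 h, 3 lower and 1 higher at 8 h, and 3 lower at 12 h, beside 4.72% of all tested probe sets called lower and 4.87% higher at 8 h and 6.21% lower at 12 h. Srebf2 was called at none of the 6 times against normal liver, with differences of -0.90 to -0.20 (SE 0.41), and read 722 and 811 in normal liver, 536 and 513 at 12 h, and 546 and 265 at 36 h. Its arrays at 12 and 36 h were below normal liver, and they overlapped each other. Srebf1, which codes for the related SREBP-1 of fatty acid synthesis, fell by 2.09 at 8 h (adjusted p = 0.00151) and by 1.87 at 12 h (adjusted p = 0.00259). Scap, the sterol sensor that escorts SREBP, fell by 1.24 at 8 h (adjusted p = 0.0249) and by 1.13 at 12 h (adjusted p = 0.0325). Insig2, which retains that complex in the endoplasmic reticulum, moved the other way and rose by 1.11 at 4 h (adjusted p = 0.0253) and 1.02 at 8 h (adjusted p = 0.016). At 4 h it was the 1 gene of 6 called higher, against 1.6% of all tested probe sets.

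Insig2 read 6917 and 7193 in normal liver, 14343 and 16255 at 4 h, 16602 and 12339 at 8 h, 10096 and 9117 at 12 h, and 8552 and 6951 at 36 h. The 4 and 8 h arrays were above all normal arrays, and those of 36 h overlapped them. Stard4, a sterol carrier, was the one sterol sensing gene called in the step from 12 to 36 h, with a rise of 0.99 (adjusted p = 0.0233), after falls of 1.31 at 8 h (adjusted p = 0.00285) and 0.96 at 12 h (adjusted p = 0.0136). At 36, 48 and 72 h against normal liver 0 of the 6 was called by limma, with 2, 4 and 2 at an unadjusted p under 0.05.

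Abca1, which exports cholesterol to apolipoprotein A-I and is a target of the oxysterol receptors, was high at 8 and 12 h, when the enzymes were low. It read 2459 and 2078 in normal liver, 4133 and 3841 at 4 h, 7080 and 6708 at 8 h, 7112 and 6554 at 12 h, and 2807 and 2816 at 36 h. The 8 and 12 h arrays were the highest of the course, and those of 48 h, 2460 and 2452, lay about the level of normal liver. Abca1 rose by 1.58 at 8 h (SE 0.20, adjusted p = 0.000492) and 1.57 at 12 h (adjusted p = 0.000599), and fell by 1.26 from 12 to 36 h (adjusted p = 0.00395). Of the 11 tested genes of export, storage and oxysterol response it was the only one called higher at 8 or 12 h, where 4.87% and 5.97% of all tested probe sets were called higher, and 4 were called lower at each time. The latter included Lipa, the lysosomal acid lipase, at -1.51 and -1.45 (adjusted p = 0.00475 and 0.00516). Scarb1, the HDL receptor, was at -1.13 and -1.47 (adjusted p = 0.0173 and 0.00363). The others were Abcg5, at -1.11 and -1.21 (adjusted p = 0.0237 and 0.0136), and Abcg8, at -1.09 and -1.02 (adjusted p = 0.00635 and 0.008).

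Enzymes of fatty acid synthesis (8 listed, 8 tested) were low at 12 h and had a negative median at 36 h. At 12 h 5 of 8 were called lower, with a median of -1.02, beside 6.21% of all tested probe sets. Among them was Acly, which supplies acetyl-CoA, at -1.95 (adjusted p = 0.00338). At 36 h 2 were called lower and 0 higher, with a median of -0.75, beside 1.88% and 2.28% of all tested probe sets. From 12 to 36 h 2 rose and 1 fell, with a median of 0.07. In that step 3.08% of all tested probe sets were called higher and 1.3% lower. Fasn, fatty acid synthase, read 4912 and 5605 in normal liver, 2727 and 2613 at 12 h, 2040 and 2598 at 36 h, and 2026 and 2034 at 48 h. The 36 h arrays of Fasn stayed below those of normal liver (-1.17, SE 0.23, adjusted p = 0.0146), at a time when the 9 enzymes had a median of 0.61. Acss2, which makes acetyl-CoA from acetate, was likewise called lower at 36 h (-1.58, adjusted p = 0.00413). The difference between the lists was not tested. Of 6 tested genes that use mevalonate products elsewhere, Nus1, a subunit of the dolichol-making enzyme, was the one called. It was higher at 8 h (0.93, adjusted p = 0.029) and 12 h (1.03, adjusted p = 0.0153). Over all tested probe sets 4.87% and 5.97% were called higher at these times.

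**Figure D5:**
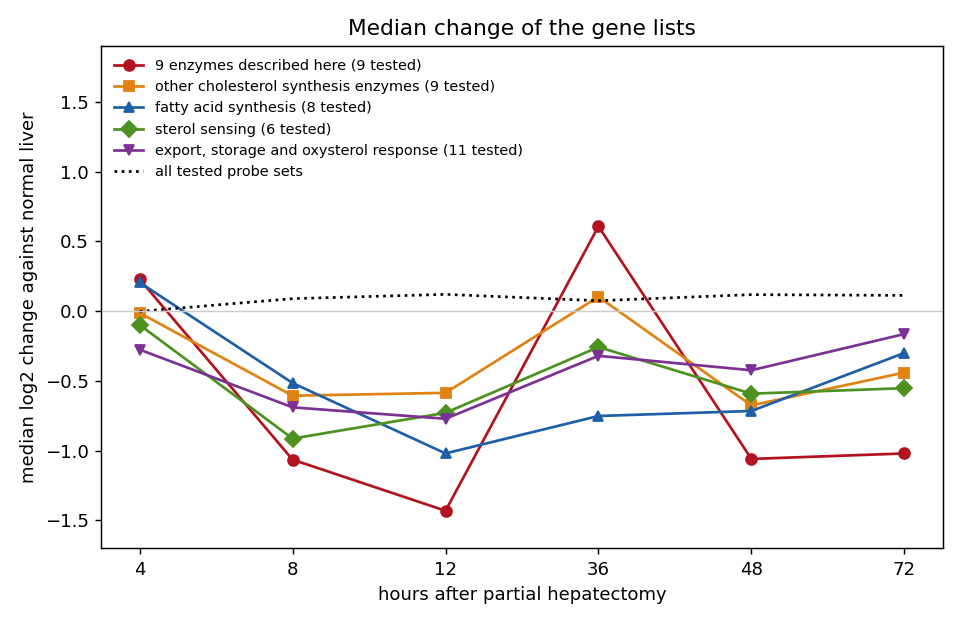
Median difference in log2 intensity from normal liver at 6 times after partial hepatectomy for the 9 enzymes, 4 other gene lists and all tested probe sets. The 9 enzymes run from -1.43 at 12 h to 0.61 at 36 h and back to -1.06 at 48 h, and fatty acid synthesis is at -0.75 at 36 h.

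Among 8444 other genes, those whose course over the 14 arrays was most like the mean of the 9 were Nsdhl (correlation 0.942, and 0.961 over the 7 group means), Nrep (0.903 and 0.926), Erg28 (0.864 and 0.913) and Slco2a1 (0.859 and 0.942). They were followed by Osbpl1a (0.841 and 0.895), Mvd (0.829 and 0.921), Stard4 (0.828 and 0.842) and Prkag2 (0.824 and 0.901). Of these 8, Nsdhl and Mvd are on the list of other pathway enzymes and Stard4 on that of sterol sensing. Nrep and Prkag2 stood below normal liver at 12 h, at -1.57 and -1.26, and near it at 36 h, at -0.37 and 0.08.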

How the data were processed

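The deposited values are linear intensity, 1 for each array and probe set. Which software made them is not stated in the labels. Per the deposited table the mean of each array without the lowest and highest 2% lay between 499.5 and 499.9, so the authors had scaled the arrays to each other. Symbols came from the array annotation. Of 22626 probe sets that are not controls, 20380 had 1 symbol, 691 several and 1555 none. Intensities plus 56.6, the 25th percentile, were put on the log2 scale, and probe sets with a mean intensity of at least 128.8, the 40th percentile, were tested. A model of 7 groups was fitted in limma 3.58.1, run in R 4.3.3, with all 14 arrays (7 residual and 5.07 prior degrees of freedom), with Benjamini-Hochberg adjustment at 0.05 within each comparison. The procedure was tested on simulated data. The 27 bacterial control probe sets set the background of each array at their 95th percentile (43.56 to 138.3). Where both arrays of a group were not above it, a fold is a lower bound, the mean log2 value of the brighter group against, per array, the higher of the background and the probe's own signal. The number of arrays limits the precision.

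All 9 enzymes were named. Of each other list, up to 4 tested genes with the largest change in a comparison were named, together with genes whose roles the text turns on and the 8 genes most like the enzymes. The members and lists were chosen with earlier results of these data known. Alternatives were another scaling, pseudocount, filter, prior variance, array weights, blocks, left-out arrays, probe set rule, fit of only the arrays compared, and a 2-fold rule without a test. Promoter windows are those of RefSeq on GRCm38.p6, matched by symbol.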

Additional observations from a re-analysis of the deposited data

Results flagged for a closer look

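For 7 of the 9 enzymes the differences from normal liver at 12 h and at 36 h had opposite signs, and the difference between these 2 times, tested directly in limma, passed the threshold. It was 3.30 on the log2 scale for Mvk, 2.70 for Hmgcs1, 2.37 for Idi1, 2.14 for Fdft1, 2.07 for Cyp51, 1.95 for Msmo1 and 1.53 for Sqle. Fdps and Sc5d rose in the same step, but both of their differences from normal liver were negative, that of Fdps at 36 h only -0.02. The sign at 36 h changed in 4 of 28 alternatives for Fdps and in 1 for Mvk. Of the 7, Idi1 and Cyp51 alone were called against normal liver at 36 h, and Sqle and Msmo1 were not called at 12 h. For Mvk the 12 h arrays were not above background, so its value there is a fitted one and the bound is at least 6.80-fold.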

How the results depend on the processing

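Under 28 alternatives 2520 values of the 9 enzymes were recomputed, and 0 called values changed sign. Of 45 calls 18 held in each fit with 1 array left out and 9 under every alternative: Mvk, Fdft1 and Sc5d at 8 h, Hmgcs1, Mvk and Sc5d at 12 h, Mvk and Sc5d late against early, and Fdft1 from 4 to 8 h. Leaving out 1 array gave counts of 0 to 0 at 4 h against normal liver, 4 to 5 at 8 h, 4 to 8 at 12 h and, among the late times, 0 to 3 at 36 h, 0 to 4 at 48 h and 0 to 6 at 72 h. The ranges were 6 to 9 from 12 to 36 h, 3 to 5 late against early, 1 to 7 from 4 to 8 h, 0 to 7 from 36 to 48 h and 9 to 9 over the course.

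Counts moved by over 1.5 times as follows; the cause was not tested, except that fits with fewer arrays have fewer degrees of freedom. Without the 4 arrays with a low 5′ control signal the counts against normal liver were 3 at 8 h and 4 at 12 h, then 0 at 36 h, 1 at 48 h and 0 at 72 h; in the other comparisons they were 0 from 12 to 36 h, 2 late against early, 1 from 4 to 8 h and 0 from 36 to 48 h; with that split as a block, 1 at 36 h. With only the arrays compared they were 4 at 12 h and 0 at 36 h, then 0 at 48 h and 1 at 72 h, 0 from 12 to 36 h and 0 from 36 to 48 h. Array weights gave 4 at 12 h, no call (0) at 48 h, 2 at 72 h and 9 from 4 to 8 h. A pseudocount 4 times lower gave 1 at both 36 and 48 h and 2 at 72 h, and one 4 times higher 5 at 48 h. No filter gave 1 at 36, 48 and 72 h, and a filter at the 60th percentile 5 at 48 h. Averaging all probe sets of a gene gave 1 at both 4 and 48 h and 2 at 72 h, and 2-fold without a test 1 at 36 h, 5 at 48 h and 2 late against early.

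The replicate numbers were not treated as pairs: the deviations of replicate 1 correlated between groups at -0.19 to 0.53, over 0.1 in 9 of 21 pairs of groups, and the 4 arrays with the low 5′ control signal are all replicate 2. With the number as a replicate block the counts were 1 at 36 h and 5 at 48 h. The median over tested probe sets at 48 h went from 0.12 to -0.00 under quantile normalization. Leaving out pancreas and muscle probe sets, an alternative chosen after seeing the data, left each count within 1.5 times. It only rescales the enzymes' own values, so it does not test the part of pancreas or muscle RNA. The steps from 4 to 8 h and from 36 to 48 h were also chosen after seeing the data. Values near background limit what can be said of Mvk at 8 and 12 h.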
